A study of Mus musculus with 6 samples.

Results

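The genes described here encode 10 enzymes and carriers of mitochondrial long-chain fatty acid oxidation, measured by RNA-seq in mouse hematopoietic stem cells (HSCs). They were chosen by symbol (Cpt1a, Slc25a20, Cpt2, Acadvl, Acadl, Acadm, Acad9, Hadha, Hadhb and Etfdh), by a rule that uses no values but with earlier results of these data known. They are 10 of 21878 gene rows. All 10 were above the expression minimum used for testing (at least 1 FPKM, a count of fragments scaled by gene length and by the reads of the library, in at least 3 of 6 libraries), as were 10449 genes in all. The HSCs were sorted from the bone marrow (BM) of wild-type (WT) mice, which the methods of the study give as C57BL/6, as cells negative for lineage markers, CD34 and Flk2 and positive for Sca1 and c-Kit. The control group had 3 libraries from mice given vehicle, and the IGF1 group 3 libraries from mice given a single subcutaneous dose of recombinant mouse IGF1 (insulin-like growth factor 1), with HSCs taken a day later. The methods describe the mice as age-matched and name males for transgenic mice and their littermates, but the age and sex of the mice behind these libraries are not given in the sources used here. The labels conflict, because the extraction text speaks of irradiated mice where the treatment label names IGF-1, and the groups follow the treatment label. The number of mice behind a library is not stated, so p-values measure only the spread between these libraries, which may be technical.

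Fatty acid oxidation shortens fatty acids inside mitochondria and passes the electrons it releases to the respiratory chain. Long-chain fatty acids cross the mitochondrial membranes as carnitine esters, carried by the carnitine shuttle (Cpt1a, Slc25a20, Cpt2). In the matrix, each cycle begins with an acyl-CoA dehydrogenase, goes on through hydration, a further dehydrogenation and thiolysis, which the trifunctional protein (Hadha and Hadhb) performs for long chains, and hands electrons to the ubiquinone pool through Etfdh. In adult HSCs the pathway is known for its part in self-renewal.

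The libraries held between 11325386 and 16119231 reads, recovered from the deposited values, and a member had between 193 reads (Cpt2 in control 2, a counting SD of 7.2%) and 4953 reads (Acadl in control 1). Control replicate 2 stood apart from its group, and whether it belongs with its label could not be settled from the files, a doubt that reaches every control mean and SE given here. Across all genes, its read counts differed from those of controls 1 and 3 with a chi-squared per gene of 229 and 231, against 24.6 to 28 from the IGF1 libraries. Counting noise alone gives a value near 1. Controls 1 and 3 differed by 1.52, and the IGF1 libraries from each other by 1.69 to 1.89. Without control 2 the libraries of a group thus differ little beyond counting noise, so p-values of that fit say little about spread between mice. The FPKM values of control 2 summed to 635111, close to the 677826 to 680285 of the IGF1 libraries and above the 466135 and 466619 of controls 3 and 1, so the weight of short and long genes moved with the group and with this library. Of the 10 HSC markers, 5 were at or above 1 FPKM in every library. Cd34 and Flt3 (which encodes Flk2), whose proteins the sort excluded, had mRNA in every library. Cd34 stood at 640, 265 and 634 FPKM among controls and 231, 238 and 230 FPKM after IGF1 (log2 fold change -1.03, or -1.45 without control 2), and Flt3 at 117, 172 and 117 FPKM among controls and 187, 188 and 183 FPKM after IGF1 (0.48, or 0.67 without control 2). Neither passed the test with all 6 libraries, and for both control 2 lay nearer to the IGF1 values, as for most of the 10 enzymes. In bulk RNA, fewer cells of a type and less RNA per cell cannot be told apart.

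After IGF1, 4 of the 10 genes fell by more than 2-fold with an adjusted p under 0.05, and 0 rose. They were Cpt1a, the rate-controlling enzyme of entry into the mitochondrion, Acad9, the acyl-CoA dehydrogenase family member known for assembling respiratory complex I, Hadhb, the thiolase subunit of the trifunctional protein, and Etfdh, which passes the electrons on to ubiquinone. Over all genes tested, 4.63% were called lower and 1.98% higher by the same rule. Each of the 10 genes had a log2 fold change below 0, as did 59.6% of genes tested, and the median of the 10 was -0.90 against -0.18 over all genes tested. The 3 control values all lay above the 3 IGF1 values for 7 of the 10 genes, an order that 37.4% of genes tested also had, and 0 of the 10 had the opposite order, which 21.9% of genes had. The adjusted p alone was passed by 5 of the 10, the 4 called and Slc25a20, beside 14.1% of genes tested that passed it with a lower value. Without control 2, 6 of the 10 were called lower and 0 higher, beside 20.6% and 12.3% of all genes, all 10 passed the adjusted p, as 53.6% of genes did with a lower value, and the median was -1.14 against -0.24. The 4 not called were then at -0.84 (Cpt2), -0.71 (Acadm), -0.44 (Hadha) and -0.34 (Acadl). Leaving out any other library gave 0 calls by limma among the 10 genes and among all genes, with 5 or 6 of the 10 at an unadjusted p under 0.05, beside 28.5% to 30.7% of all genes, against 7 of the 10 and 53.4% of all genes with all libraries. Calls are from limma with Benjamini-Hochberg adjustment over all genes tested, and each log2 fold change given is a difference of group means of log2(FPKM + 1).

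**Figure D1:**
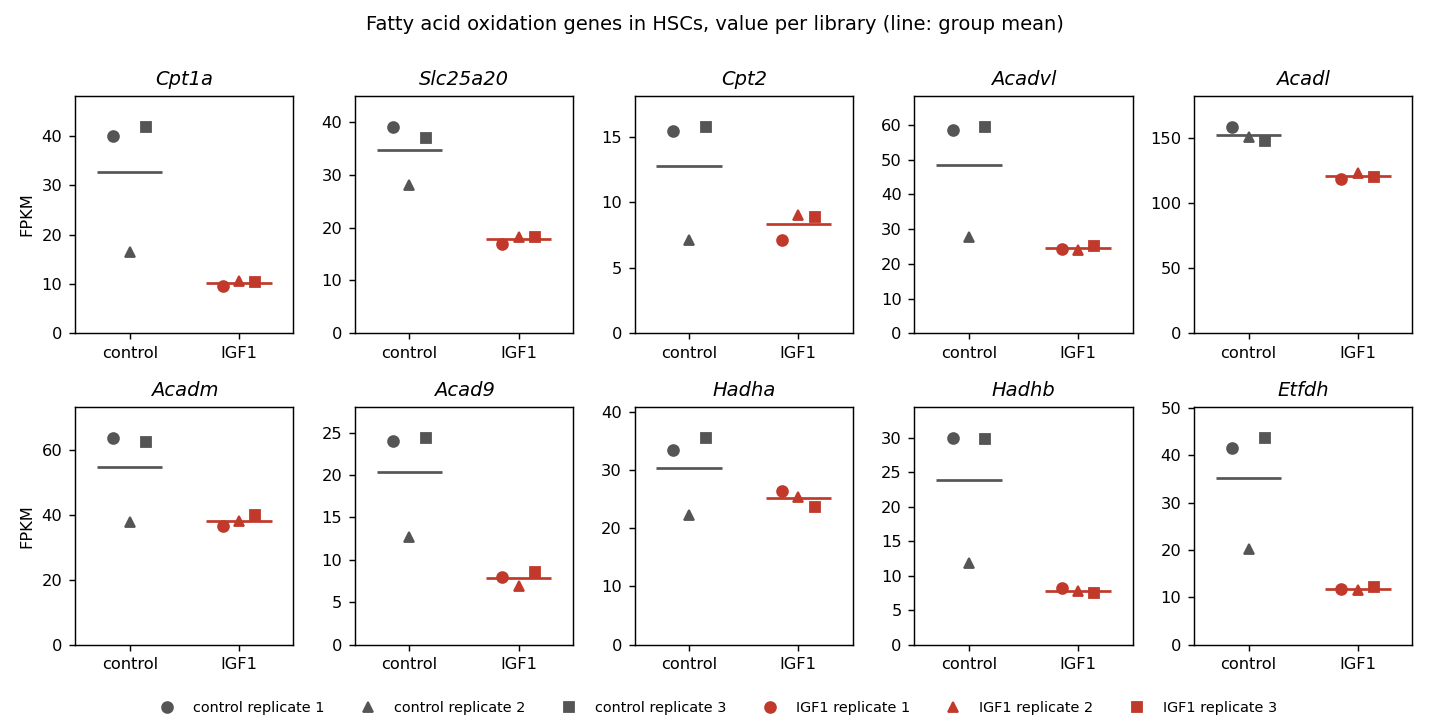
FPKM (vertical axes, from 0) of the 10 fatty acid oxidation genes in each library, with controls in grey, IGF1 in red, a symbol per replicate number and a line at each group mean. The IGF1 libraries lie close together for every gene, while control 2 lies below controls 1 and 3 for every gene but Acadl, where it lies between them.

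The carnitine shuttle had its largest difference at its entry step. Cpt1a joins long-chain acyl groups to carnitine at the outer mitochondrial membrane. Its level was 40.0, 16.4 and 41.9 FPKM among controls and 9.53, 10.6 and 10.4 FPKM after IGF1, in the order of the replicate numbers, as for every gene here. Every control lay above every IGF1 library, with control 2 nearest to them. The IGF1 mean (10.2 ± 0.55 FPKM, SD, n = 3) was 3.23-fold below the control mean (32.8 ± 14.2 FPKM, SD, n = 3), and the log2 fold change was -1.49 (SE 0.36, adjusted p = 0.0445 by limma). Without control 2 it was -1.91.

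The promoter of Cpt1a is shown because this gene had the largest fold change of the 10. The window is RefSeq's, on the plus strand of GRCm38.p6 at chr19:3323051-3323350. It holds the start of the GENCODE M21 transcript that runs from 3323285 to the end of the gene at 3385733, but not the outermost annotated starts, which lie further upstream, at 3322334 in GENCODE and 3322326 in RefSeq. Capitals mark the nuclear receptor hexamer AGGTCA, present here on the opposite strand at bases 157 to 162 of the window, and the CCAAT box at bases 232 to 236.
Cpt1a promoter: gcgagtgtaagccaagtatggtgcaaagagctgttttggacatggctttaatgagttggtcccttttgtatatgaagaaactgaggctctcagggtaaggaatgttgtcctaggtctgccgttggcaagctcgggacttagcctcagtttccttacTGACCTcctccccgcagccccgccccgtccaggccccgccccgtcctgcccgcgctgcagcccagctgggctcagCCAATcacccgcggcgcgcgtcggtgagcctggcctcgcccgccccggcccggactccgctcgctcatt
Windows of this kind were found for 9 of the 10 genes, and motifs were searched on both strands. AGGTCA stood in 3 of the 9 (Cpt1a, Acadm and Acadvl), against 16.3% of all 32851 windows, and CCAAT in 2 of the 9 (Cpt1a and Etfdh), against 37.4%. The longer nuclear receptor motifs that contain the hexamer, the extended site TCAAGGTCA and a direct repeat of the hexamer with a single base between the copies, stood in 0 of the 9, against 0.423% and 0.0396% of all windows, and the E-box CACGTG also in 0 of the 9, against 7.15%. The GC box GGGCGG, left in lower case, stood in 7 of the 9, against 35.7%. Among the 7 are the windows of Hadha and Hadhb, which overlap and share a GC box, so these are not separate cases. These matches are descriptions of letters in the windows and show no binding.

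Slc25a20 exchanges acylcarnitine for carnitine across the inner membrane. Its level was 39.1, 28 and 37 FPKM among controls and 16.9, 18.3 and 18.2 FPKM after IGF1. The groups did not overlap, and control 2 lay less far from the other controls than it did for Cpt1a. Slc25a20 passed the adjusted p (0.0307 by limma) but not the fold threshold, at a log2 fold change of -0.91 (SE 0.15) and means 1.95-fold apart. Without control 2 its log2 fold change was -1.06 and it was called lower.

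Cpt2, at the inner membrane, turns acylcarnitine back into acyl-CoA in the matrix. Its level was 15.5, 7.12 and 15.8 FPKM among controls and 7.14, 9.02 and 8.88 FPKM after IGF1. The groups overlapped, because control 2 was the lowest of all 6 libraries. The log2 fold change was -0.49 with a 95% interval from -1.25 to 0.26 (adjusted p = 0.217 by limma).

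The unequal differences of Cpt1a and Cpt2 show in their ratio, which a factor common to both genes in a library does not change. The Cpt1a to Cpt2 ratio of FPKM values was 2.57, 2.30 and 2.66 in the controls and 1.33, 1.17 and 1.17 in the IGF1 libraries. The groups did not overlap, and control 2 lay with the controls. The log2 ratio was lower by a mean of -1.04 with IGF1, and by -1.10 without control 2. The 2-sided exact permutation test gave p = 0.1, the smallest that 3 against 3 libraries allow.

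The acyl-CoA dehydrogenases open each cycle by setting a double bond into an acyl chain of a given length range, and the 4 family members measured here differed in size of change. Acadvl, the very long-chain enzyme of the inner membrane, stood at 58.4, 27.8 and 59.5 FPKM among controls and 24.3, 24.1 and 25.1 FPKM after IGF1. There was no overlap between groups, and control 2 stood 85.7% of the way from the other controls to the IGF1 mean. The log2 fold change was -0.88 (SE 0.30) and did not pass the test (adjusted p = 0.0677 by limma), while without control 2 it was -1.23 and was called lower. The value of Acadvl is uncertain, because 1151 of its annotated exon bases (42.9%) also belong to Dvl2 on the opposite strand (GENCODE M21, GRCm38) and it is not stated whether counting used strand. Dvl2 itself stood at 9.53, 7.56 and 9.79 FPKM among controls and 8.55, 9.93 and 7.61 FPKM after IGF1.

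Acadl, the long-chain dehydrogenase, was the most abundant of the 10 per length in both groups. Its level was 159, 151 and 148 FPKM among controls and 119, 123 and 120 FPKM after IGF1. All controls lay above all IGF1 libraries, and this was the member for which control 2 lay with the other controls, 6.03% of the way from their mean to the IGF1 mean. The means differed 1.26-fold, at a log2 fold change of -0.33 (SE 0.10, adjusted p = 0.0531 by limma).

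Acadm, the medium-chain dehydrogenase, stood at 63.7, 37.8 and 62.4 FPKM among controls and 36.6, 38.1 and 39.9 FPKM after IGF1. Control 2 lay inside the range of the IGF1 libraries, so the groups overlapped. The log2 fold change was -0.47 with a 95% interval from -1.0 to 0.06 (adjusted p = 0.12 by limma). An annotated copy, Gm5131, matches Acadm over 681 bases at 93.5% identity, so reads may be split between them.

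Acad9 belongs to this family by sequence and is known chiefly as an assembly factor of respiratory complex I. It stood at 24.0, 12.7 and 24.4 FPKM among controls and 7.96, 6.95 and 8.54 FPKM after IGF1. Control and IGF1 values did not overlap, and their means differed 2.61-fold. The log2 fold change was -1.23 (SE 0.26, adjusted p = 0.0402 by limma), and -1.52 without control 2. After trends on length and GC content were taken out it was -0.64, and Acad9 was not called. Its transcript resembles those of other genes over up to 630 bases (90.5% identity) and matches Gm43079, on the same strand, over 532 bases at 99.8% identity. The transcripts of Etfdh (up to 924 bases at 90.2%), Slc25a20 (up to 366 bases at 98.9%) and Hadhb (up to 226 bases at 91.15%) also resemble others. How the counting treated such reads is not stated.

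**Figure D2:**
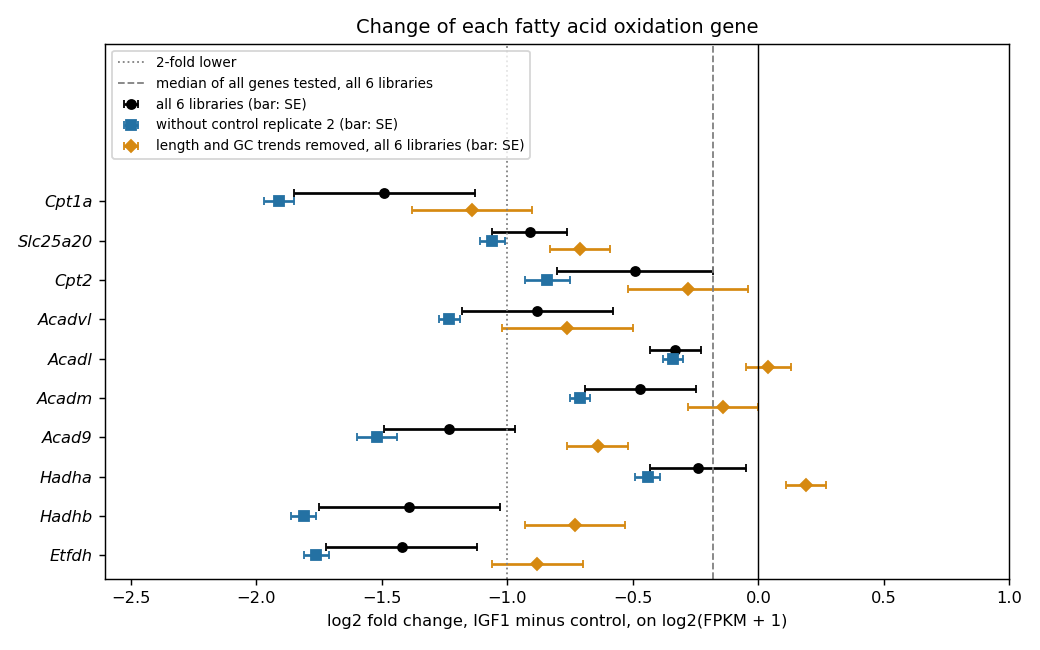
Log2 fold change of IGF1 minus control on log2(FPKM + 1) for each gene (horizontal axis) with all 6 libraries (black circles), without control 2 (blue squares) and after trends on length and GC content were taken out (orange diamonds), bars showing SE. Leaving out control 2 moved all 10 values further below 0 and shortened the bars, whereas removing the trends moved all 10 toward or past 0.

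The trifunctional protein is built from equal numbers of its α subunit (Hadha, with the hydratase and hydroxyacyl-CoA dehydrogenase activities) and β subunit (Hadhb, the thiolase), and the mRNAs of its subunits differed in their change. Hadha stood at 33.4, 22.3 and 35.5 FPKM among controls and 26.4, 25.3 and 23.6 FPKM after IGF1. The groups overlapped, with control 2 below all 3 IGF1 libraries. The log2 fold change was -0.24 with a 95% interval from -0.70 to 0.22 (adjusted p = 0.314 by limma), and its sign was not stable, at 0.03 after quantile normalization, 0.01 after scaling to the 75th percentile and 0.19 after removal of the length and GC trends.

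Hadhb stood at 30.0, 11.8 and 29.8 FPKM among controls and 8.17, 7.71 and 7.51 FPKM after IGF1. No IGF1 library reached the lowest control, which was control 2. The means differed 3.06-fold, and the log2 fold change was -1.39 (SE 0.36, adjusted p = 0.0474 by limma), or -1.81 without control 2. With all 6 libraries and no trend removed, Hadhb passed the test and Hadha did not. After removal of the length and GC trends neither passed, at -0.73 for Hadhb (adjusted p = 0.0512 by limma) and 0.19 for Hadha (adjusted p = 0.115).

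The ratio of Hadhb to Hadha was 0.898, 0.531 and 0.840 in the controls and 0.309, 0.305 and 0.318 in the IGF1 libraries. The IGF1 ratios lay within a narrow band (0.311 ± 0.00664, SD, n = 3), below every control (0.756 ± 0.198, SD, n = 3). Control 2 lay between the groups. The log2 ratio was lower by a mean of -1.25, or -1.48 without control 2, and the 2-sided exact permutation p was 0.1, the smallest possible here.

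**Figure D3:**
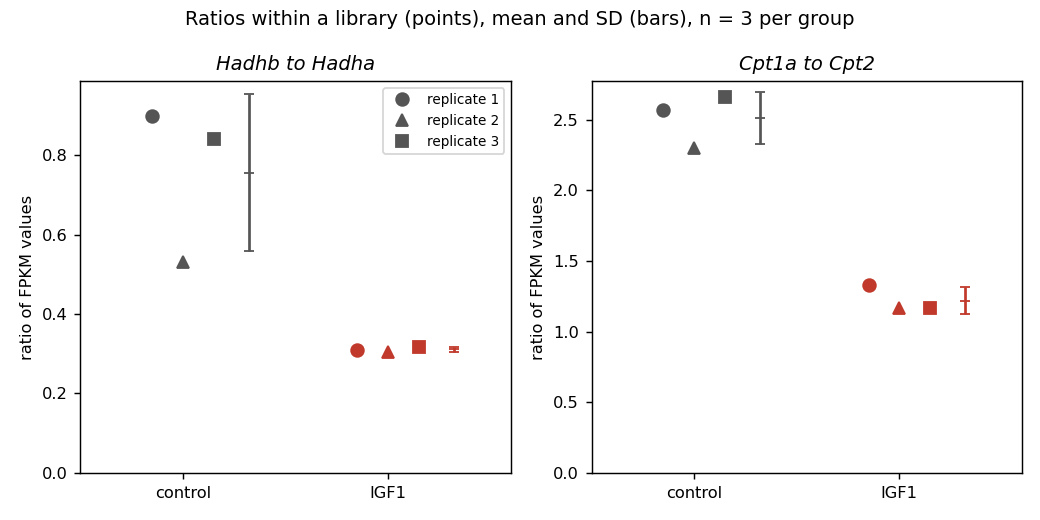
Ratio of FPKM values (vertical axes, from 0) of Hadhb to Hadha and of Cpt1a to Cpt2 in each library, with controls in grey, IGF1 in red, a symbol per replicate number, and bars at the group mean with SD (n = 3). Both ratios are lower in all 3 IGF1 libraries than in any control, and control 2 lies between the groups for the Hadhb to Hadha ratio and near the other controls for Cpt1a to Cpt2.

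On chromosome 5, Hadha (30118304 to 30155162, minus strand) and Hadhb (30155248 to 30184593, plus strand) lie head to head in GENCODE M21 on GRCm38 with 85 bases between them. By the RefSeq starts, at 30154980 for Hadha and 30155253 for Hadhb, 272 bases lie between them. The RefSeq promoter window of Hadhb, chr5:30155003-30155302 on the plus strand of GRCm38.p6, overlaps that of Hadha, chr5:30154931-30155230 on the minus strand, by 228 of its 300 bases. It is printed because the subunit genes share it, and capitals mark the bases that lie in both windows.
Hadhb promoter: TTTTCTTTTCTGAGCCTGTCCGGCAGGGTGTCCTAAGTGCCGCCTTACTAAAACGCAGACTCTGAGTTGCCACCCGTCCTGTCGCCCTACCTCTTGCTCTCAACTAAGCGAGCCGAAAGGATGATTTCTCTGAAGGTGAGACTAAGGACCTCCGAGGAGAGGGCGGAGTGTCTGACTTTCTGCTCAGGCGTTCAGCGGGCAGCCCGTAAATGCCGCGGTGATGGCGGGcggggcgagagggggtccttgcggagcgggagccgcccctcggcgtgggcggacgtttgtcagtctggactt

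Etfdh takes electrons from the electron transfer flavoprotein, a dimer of Etfa and Etfb that every mitochondrial acyl-CoA dehydrogenase of this pathway reduces, and passes them to ubiquinone. It stood at 41.5, 20.2 and 43.7 FPKM among controls and 11.8, 11.6 and 12.1 FPKM after IGF1. The groups did not overlap, and control 2 stood 58.9% of the way from the other controls to the IGF1 mean. The means differed 2.97-fold. The log2 fold change was -1.42 (SE 0.30), with the smallest adjusted p of the 4 genes called (0.0388 by limma), and without control 2 it was -1.76.

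The RefSeq promoter window of Etfdh, chr3:79628718-79629017 on the minus strand of GRCm38.p6, is shown because it was the only member window with the palindromic site of the mitochondrial regulator NRF1. Capitals mark a CCAAT box at bases 15 to 19 and the NRF1 site at bases 123 to 132, which 0.971% of all windows hold.
Etfdh promoter: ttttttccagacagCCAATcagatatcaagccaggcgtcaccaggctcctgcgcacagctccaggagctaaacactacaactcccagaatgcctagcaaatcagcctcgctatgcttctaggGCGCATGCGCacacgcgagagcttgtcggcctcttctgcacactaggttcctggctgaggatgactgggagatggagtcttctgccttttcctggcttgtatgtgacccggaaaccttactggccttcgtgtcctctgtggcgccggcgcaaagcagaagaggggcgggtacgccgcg

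The flavoprotein subunits themselves differed from Etfdh in their values. Etfa stood at 127, 111 and 135 FPKM among controls and 79.6, 87.8 and 80.5 FPKM after IGF1, at a log2 fold change of -0.58 (adjusted p = 0.0369 by limma, under the fold threshold). Etfb stood at 377, 692 and 382 FPKM among controls and 693, 700 and 716 FPKM after IGF1, at 0.60 (adjusted p = 0.115 by limma), with control 2 next to the IGF1 values. The Etfdh to Etfb ratio was 0.110, 0.0292 and 0.114 in the controls and 0.0171, 0.0166 and 0.0169 in the IGF1 libraries, lower in all 3 IGF1 libraries than in any control (2-sided exact permutation p = 0.1). With the length and GC trends removed, the log2 fold change of Etfb turned to -0.34, beside -0.88 for Etfdh and -0.46 for Etfa.

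Compared per length, the order of the 10 genes was clearer in the IGF1 group, whose libraries were closer to each other. There, Acadl (121 ± 1.9 FPKM, SD, n = 3) was followed by Acadm (38.2 ± 1.63), then Hadha (25.1 ± 1.4) and Acadvl (24.5 ± 0.536), which overlapped, then Slc25a20 (17.8 ± 0.792), Etfdh (11.8 ± 0.248) and Cpt1a (10.2 ± 0.55), and last Cpt2 (8.35 ± 1.05), Acad9 (7.82 ± 0.806) and Hadhb (7.80 ± 0.339), which overlapped. In the controls Acadl (152 ± 5.68 FPKM) stood above Acadm (54.6 ± 14.6), and all later neighbours overlapped, down to Cpt2 (12.8 ± 4.93). The 10 values summed to 504, 335 and 498 FPKM among controls and 268, 274 and 275 FPKM after IGF1. Acadl made up 31.5%, 45.0% and 29.7% of that sum in the controls and 44.4%, 44.7% and 43.9% in the IGF1 libraries, so that control 2 resembled the IGF1 libraries in its makeup.

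Gene length and base composition moved with the result. The members' gene lengths, recovered from the values, ran from 1783 bases (Slc25a20) to 5381 bases (Hadhb), and the GC content of the longest annotated transcript from 39.11% (Hadhb) to 53.74% (Acadvl). When smooth trends on length and GC content were removed from each library, the median of the 10 genes was -0.68 against 0.00 over all genes, and 1 of the 10 was called lower, beside 1.4% of all genes. That gene was Cpt1a, at -1.14 (adjusted p = 0.0355 by limma). Acad9 (-0.64) and Etfdh (-0.88) still passed the adjusted p but not the fold threshold, Hadhb was at -0.73 (adjusted p = 0.0512 by limma), and Acadl was at 0.04.

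Other genes of fatty acid handling were taken by role, 66 in all, of which 53 could be tested. Among them 1 was called lower (Crot) and 1 higher (Ppard, which had to differ to be tested, since all its control values were under the minimum), beside 4.63% and 1.98% of all genes. A log2 fold change below 0 was found for 36 and above 0 for 17, where 59.6% of all genes lay below 0. The median was -0.29 against -0.18 over all genes tested. An unadjusted p under 0.05 by limma was found for 23 of the 53, beside 53.4% of all genes. Without control 2, 11 of the 53 were called lower and 1 higher, where 20.6% and 12.3% of all genes were. Of 10 other matrix enzymes, 0 were called by limma (4 at an unadjusted p under 0.05), 5 lay on each side of 0 and the median was 0.01. Acad11 had the smallest adjusted p of this list (0.0412 by limma), at a log2 fold change of -0.87. Its log2 fold change was -1.02 without control 2, where it was called lower, and -0.12 with length and GC trends removed. Acads, the short-chain dehydrogenase, stood at 27, 21.1 and 24.1 FPKM among controls and 26.8, 25 and 25 FPKM after IGF1, at a log2 fold change of 0.09. Echs1, the short-chain hydratase, was at 0.10, Hadh, the short-chain hydroxyacyl-CoA dehydrogenase, at -0.07, and Acaa2, the thiolase of medium chains, at -0.33 (adjusted p = 0.459, 0.56 and 0.054 by limma).

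For uptake and activation, 8 of 10 genes were tested, 0 were called (2 at an unadjusted p under 0.05 by limma) and the median was -0.44. For carnitine handling 2 of 4 were tested and 0 called (1 at an unadjusted p under 0.05), and the median was -0.76. Crat, the carnitine acetyltransferase, was at -0.29, and Slc22a5, given under other observations, at -1.23. The muscle and brain forms of the Cpt1 family, Cpt1b and Cpt1c, were too low to test, which leaves Cpt1a as the form with a tested value. In peroxisomal oxidation, which shortens very long and branched chains, 13 genes were tested, the median was -0.59 and 1 was called. This was Crot, which makes carnitine esters of the shortened chains for export to mitochondria. Crot stood at 25.0, 8.02 and 25.6 FPKM among controls and 4.64, 4.87 and 4.89 FPKM after IGF1, and fell at a log2 fold change of -1.67 (SE 0.43, adjusted p = 0.0477 by limma).

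Among the 4 complex I assembly partners of ACAD9, 0 were called (2 at an unadjusted p under 0.05 by limma) and the median was -0.43. Ecsit (-0.68, adjusted p = 0.0287 by limma) and Tmem126b (-0.58, adjusted p = 0.0394) passed the adjusted p but not the fold threshold, Ndufaf1 was at -0.27 (adjusted p = 0.31), and Timmdc1, added here to complete the list, was above 0, at 0.28 (adjusted p = 0.103). Of 6 genes of the flavoprotein and of amino acid breakdown, 0 were called (1 at an unadjusted p under 0.05) and the median was -0.35. Of 4 ketone body enzymes tested, 0 were called (2 at an unadjusted p under 0.05) and the median was -0.23.

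Among the transcriptional regulators, Ppara, the nuclear receptor best known for driving this pathway in liver, was listed at 0 in all 6 libraries. Ppard, a related receptor that binds fatty acids, stood at 0.155, 0.727 and 0.289 FPKM among controls and 2.71, 1.78 and 2.51 FPKM after IGF1. Its values are low in both groups, and it entered the test only through the IGF1 libraries, so its log2 fold change of 1.27, past both thresholds, is given as a description. Esrra, an orphan receptor of mitochondrial genes, was at 0.01 (adjusted p = 0.966 by limma), and its coactivator Ppargc1b did not reach the minimum in enough libraries to be tested, at 0.676 to 0.849 FPKM in the controls and 0.914 to 1.13 FPKM with IGF1. Of 13 regulators listed, 6 were tested and their median was -0.13.

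**Figure D4:**
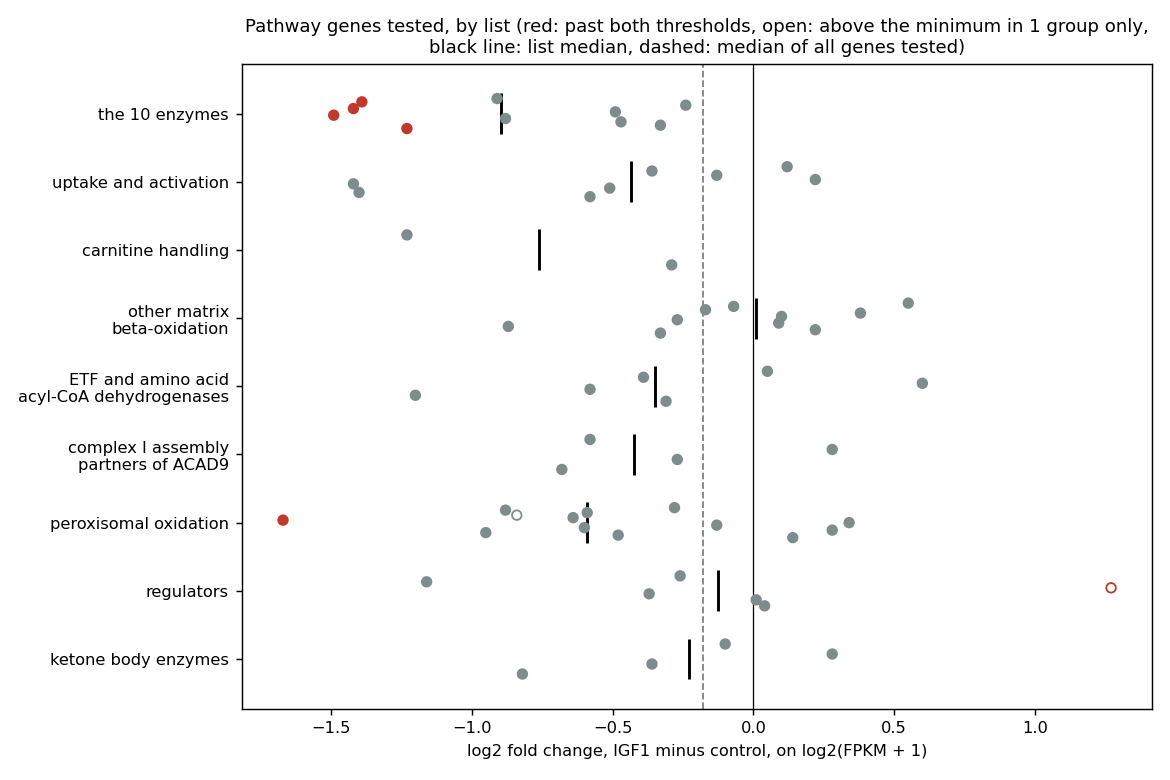
Log2 fold change of IGF1 minus control on log2(FPKM + 1) (horizontal axis) of each tested gene, by list, with red points for genes past both thresholds, open points for genes above the minimum in 1 group only, a black line at each list's median and a dashed line at the median of all genes tested. The 10 enzymes hold 4 red points and a median of -0.90, the peroxisomal list a red point at -1.67 (Crot) and the regulators an open red point at 1.27 (Ppard), which was tested only through its higher group.

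Genes whose profile over the 6 libraries was most like the mean profile of the 10 enzymes were sought by Euclidean distance of centred log2(FPKM + 1) values, outside all lists. The nearest were Gypc, Mtpn, Hmgb3, Nvl and Tnfrsf13b, at distances from 0.0555 to 0.0676 and correlations of 0.9986 to 0.9991 across the 6 libraries, with log2 fold changes between -0.92 and -0.88. Such a profile was common, since 32.7% of genes tested correlated with the mean profile at over 0.95, and the points share control 2. This library stood a median of 68.2% of the way from the other controls to the IGF1 mean for all 10 members. The median was 58.9% for the 7 whose groups did not overlap, a choice that leaves out members where control 2 reached the IGF1 values. Over the 3438 genes that differed by more than 2-fold between the other controls and IGF1, a set chosen by another rule, it was 80.1%.

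Markers of other cells moved with the groups as follows. The summed level of 7 neutrophil markers was 2260 to 2430 FPKM in the controls and 2430 to 2440 FPKM with IGF1, most of it from Mpo, and 4 of the 6 tested (S100a8, S100a9, Ngp and Camp) were called lower. Elane, of the same list, went the other way, at 92.8, 576 and 92.4 FPKM among controls and 709, 696 and 692 FPKM after IGF1 (log2 fold change 2.03, adjusted p = 0.0726 by limma), and was called higher without control 2, at 2.90. The sum of 5 B cell markers was 89.9 to 292 FPKM in the controls, with the highest in control 2, and 293 to 309 FPKM with IGF1, with 0 of 4 called by limma (3 at an unadjusted p under 0.05). The sum of 4 megakaryocyte markers was 51.2 to 72.6 FPKM and 88.8 to 100 FPKM, and that of 5 erythroid markers 32.8 to 94.7 and 43.5 to 49.0 FPKM, with 0 called in either list (2 and 0 at an unadjusted p under 0.05). T cell markers with a row (3 of 4) summed to at most 1.86 FPKM, the 4 stromal and endothelial markers to at most 1.52 FPKM and the 3 adipocyte markers, with Cidec at 0 in all libraries, to at most 1.6 FPKM. The part of these cells in the values of the 10 enzymes was not tested.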

How the data were processed

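The authors deposited 1 table of FPKM values per library, with 21878 gene symbols. Their processing notes list fastp, HISAT2 and StringTie and the builds GRCm38 and mm10, while the methods name RSEM as the counter; versions are not given in the sources used here, nor is the strand setting, although the library kit keeps strand. FPKM divides by gene length and total reads, so it does not correct for shifts in which lengths were sequenced.

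Total reads per library were recovered as the whole number that made gene lengths whole, which gave whole reads (tolerance 0.003) in every library for all 15640 rows with a value above 0, against 8.34% of jittered rows. Depth was 16022994, 11540242 and 16119231 reads in controls 1, 2 and 3 and 12394170, 11325386 and 12892649 reads in the IGF1 libraries. Counting SDs cover counting error only.

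Genes at 1 FPKM or more in at least 3 libraries were tested on log2(FPKM + 1), which understates changes of low genes, with limma 3.58.1 in R 4.3.3 (lmFit, eBayes with a trend), on all 6 libraries with no covariate. A gene counted as called when its p, adjusted by Benjamini-Hochberg, was under 0.05 and its fold over 2, as in the study. Single ratios had exact 2-sided permutation tests. The fit was checked on counts simulated around the mean of the IGF1 libraries, with no library set apart and no length or GC trend between groups. That check therefore says nothing about how the fit behaves with control 2 or such trends. Length and GC trends were removed by lowess (span 0.3) in the 10101 genes tested with a GC value (96.7%). Alternatives were quantile and 75th percentile scaling, other filters and pseudocounts, the replicate number as a block, omission of single libraries, weights per library, voom on recovered reads and other call rules.

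The 10 genes and all lists were chosen with earlier results of these data known. The text names the 10 genes, every called gene of the wider lists (at most 3 per list), fixed partners of the members and the 5 nearest profiles. Acad11 was added after the values were seen, as were the genes under other observations.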

Additional observations from a re-analysis of the deposited data

How the results depend on the processing

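All 10 genes kept a log2 fold change below 0 with a minimum of 5 FPKM or no filter, pseudocounts of 0.1 and 5, voom on recovered reads (4 called lower), library weights and every left-out library. Values above 0 were those of Hadha (0.03 after quantile normalization, 0.01 after 75th percentile scaling, 0.19 with length and GC trends removed and 0.22 with the length trend alone removed) and of Acadl (0.04 with both trends and 0.08 with the GC trend alone removed). The trends taken singly, and the wider lists without control 2, were added after the data were seen. The 4 genes called lower became 2 with no filter (more genes tested), 2 with a pseudocount of 5, 1 with both trends removed and 0 with the GC trend alone removed, 3 under either scaling (without Acad9), and 0 with the replicate number as a block, where the adjusted p of all 4 was 0.0851. Same-numbered libraries did not deviate together (correlations -0.0572, -0.0503 and 0.00567), so the numbers are not taken as pairs. Leaving out 1 library gave 0 to 6 genes called lower, with 6 without control 2 and 0 without any other, and a median from -1.14 to -0.77. Calls lower in the wider lists went from 1 to 11 without control 2. The scalings moved the median of all genes from -0.18 to -0.02 and 0.04. Apart from the settings named, the cause of these shifts was not tested. Over all genes, 484 were called lower and 207 higher, 319 and 304 after quantile normalization, 260 and 301 after 75th percentile scaling, 2157 and 1281 without control 2, 265 and 109 with no filter, 157 and 66 with a pseudocount of 5, 141 and 181 with both trends removed, and 0 with the block or without any library other than control 2. They were 685 and 380 by voom, and 66 and 87 (0.653% lower) with the GC trend alone removed. Cpt1a was at -1.38 (adjusted p = 0.0561 by limma) in that last setting. With 3 libraries a group, exact tests of single values cannot go below p = 0.1.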

Other observations

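Acsl3 and Acsl5, which activate long-chain fatty acids to acyl-CoA, and Slc22a5, the plasma membrane carnitine transporter, are named after their values were seen. Acsl5 stood at 116, 42.1 and 119 FPKM among controls and 29.3, 32.8 and 29.8 FPKM after IGF1, at a log2 fold change of -1.42 (adjusted p = 0.053 by limma). Acsl3 stood at 20.8, 3.40 and 21.0 FPKM among controls and 4.09, 3.69 and 3.85 FPKM after IGF1, at -1.40 (adjusted p = 0.118), with control 2 below all 3 IGF1 libraries. Slc22a5 stood at 11, 2.94 and 10.2 FPKM among controls and 2.24, 2.61 and 2.51 FPKM after IGF1, at -1.23 (adjusted p = 0.0723). None of these passed the test with all 6 libraries, and their values without control 2 were -1.91, -2.17 and -1.75.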
